A study of Homo sapiens with 12 samples.

Results

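The human mitochondrial chromosome carries 37 of the 58735 genes in the deposited count table, and they were taken as every gene that the table places on chromosome MT. By biotype they are 13 protein-coding genes (mRNA), 2 ribosomal RNA genes (rRNA) and 22 transfer RNA genes (tRNA). They were measured by sequencing of RNA bound to poly-T beads from Beas-2b, a bronchial epithelial cell line made immortal in culture. The groups were ANT1 knockout (KO) cells with bleomycin, KO cells in control medium, wild type (WT) cells with bleomycin and WT cells in control medium, with 3 libraries in each of the 4 groups. ANT1, the product of SLC25A4, is a carrier of the inner mitochondrial membrane that swaps ADP for ATP. The knockouts were CRISPR clones, and as the labels state no number of clones, an effect of ANT1 loss and one of a clone cannot be told apart. Bleomycin, a drug that breaks DNA, was given at 10 mg/ml over 2 days to induce senescence, per the labels. Libraries held 15.75 to 21.92 megacounts. SLC25A4 lay at 4.09 to 6.96 CPM (counts per megacount of the library, after TMM scaling) in the 6 KO libraries and at 16.1 to 27.5 CPM in the 6 WT libraries, so every library matched its genotype label.

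Mitochondrial DNA is a small circle that is copied and transcribed inside the organelle by nuclear-encoded proteins. Both of its strands are transcribed from end to end into long precursors, and most mRNAs and rRNAs are freed when the tRNAs between them are cut out. The mRNAs encode core subunits of respiratory complexes I, III and IV and of ATP synthase, the rRNAs build the mitochondrial ribosome, and the tRNAs decode the mRNAs. Most mature mitochondrial mRNAs gain a poly(A) tail, the rRNAs carry short tails, MT-ND6 lacks one, and tRNAs end in CCA, so binding to poly-T beads samples these classes unevenly. Levels below are therefore yields of this library type. In bulk RNA, fewer cells of a type and less RNA per cell cannot be told apart, and neither can fewer copies of the chromosome and less RNA per copy.

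The table places 28 members on the plus strand and 9 on the minus strand, namely MT-ND6 and 8 tRNAs. All 37 have the same start, end and strand in GENCODE release 29, on GRCh38. Neighbours are packed closely, and 5 pairs overlap, by 1 to 46 bases. The strand setting of the counting is not named in the labels or file headers, so for the 9 minus-strand members reads from the precursor of the other strand cannot be told apart from their own. The tRNA sequences below belong to the members that carried most tRNA counts or changed in the tests, read from GENCODE 29 transcripts on GRCh38, 5′ to 3′ as the gene's strand is written, with the anticodon in capitals. MT-TN, MT-TC and MT-TY, for asparagine, cysteine and tyrosine, lie side by side on the minus strand between MT-ND2 and MT-CO1. MT-TP, for proline, lies on the minus strand next to the control region. MT-TL1, for leucine, follows MT-RNR2 directly.
MT-TN (MT:5657-5729, minus): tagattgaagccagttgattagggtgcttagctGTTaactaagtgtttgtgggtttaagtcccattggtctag
MT-TC (MT:5761-5826, minus): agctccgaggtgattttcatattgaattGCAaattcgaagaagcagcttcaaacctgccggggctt
MT-TY (MT:5826-5891, minus): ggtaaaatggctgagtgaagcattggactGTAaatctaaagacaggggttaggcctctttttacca
MT-TP (MT:15956-16023, minus): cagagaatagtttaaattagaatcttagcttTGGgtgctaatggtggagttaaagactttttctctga
MT-TL1 (MT:3230-3304, plus): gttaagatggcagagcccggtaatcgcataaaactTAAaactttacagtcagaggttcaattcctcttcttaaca
MT-TC and MT-TY share 1 base, and 31 bases separate MT-TN from MT-TC, a stretch known as the origin of light-strand replication. The longest overlap joins the ATP synthase genes MT-ATP8 and MT-ATP6, which lie on 1 shared mRNA. Its 46 bases are shown because a read that covers them cannot be given to one gene alone, with the start codon of MT-ATP6 and the stop codon of MT-ATP8 in capitals.
MT-ATP8 and MT-ATP6 overlap (MT:8527-8572, plus): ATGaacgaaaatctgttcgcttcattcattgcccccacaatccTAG

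Replicate 2 of the KO control group stood apart and touches every result that uses that group. Counts on the mitochondrial chromosome made up 4.66%, 5.03% and 4.39% of the library in KO bleomycin and 4.43%, 0.364% and 3.86% in KO control. They made up 4.29%, 4.36% and 5.13% in WT bleomycin and 4.12%, 4.31% and 4.02% in WT control. The 95% Wilson interval of each share is at most 0.01 percentage points to either side and covers counting error only. KO control 2 therefore lay far below the other 11 libraries, while bleomycin overlapped control within each genotype, and KO overlapped WT within each treatment. Without it, the KO control group averaged 4.14% ± 0.41 (SD, n = 2). Every test was run with all 12 libraries and again without KO control 2.

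**Figure D1:**
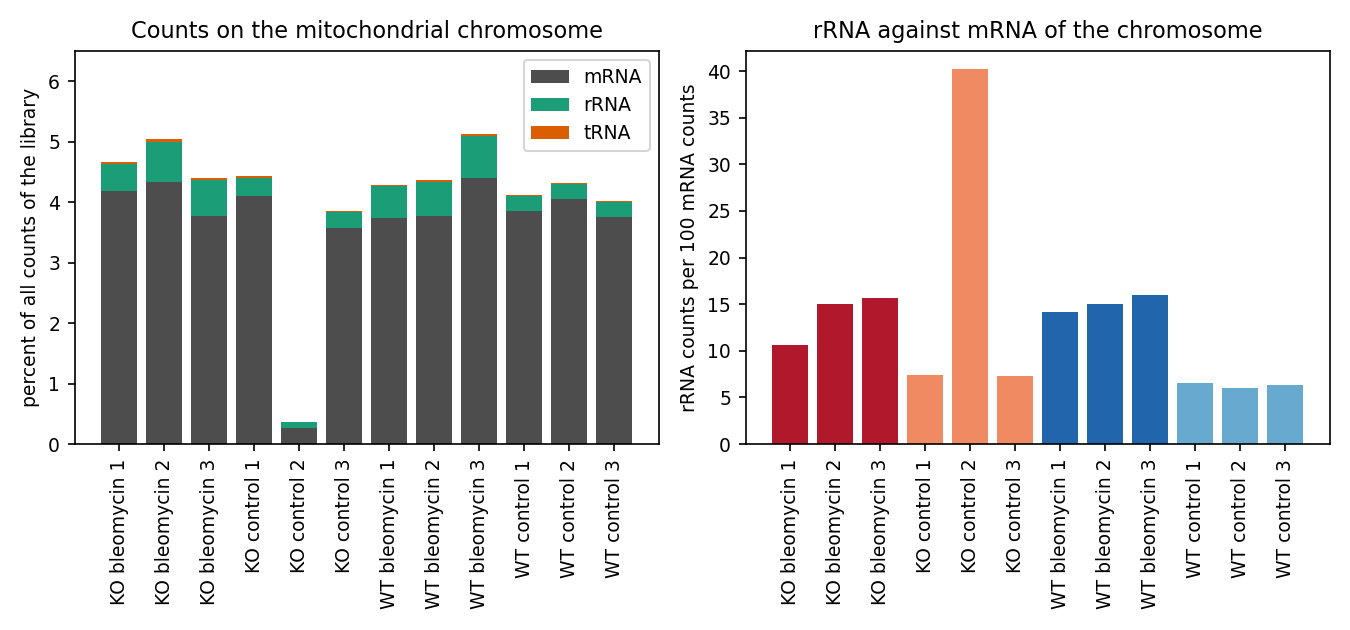
Left, percent of all counts of each library on the mitochondrial chromosome, stacked by biotype (y axis; 1 bar per library on the x axis). Right, mitochondrial rRNA counts per 100 mitochondrial mRNA counts in the same libraries. KO control 2 has the shortest bar at left (0.364%) and the tallest at right (40.2), and the 6 bleomycin libraries lie at 10.6 or more at right, against at most 7.37 in the other 5 control libraries.

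The loss in KO control 2 was uneven between biotypes and between members. Relative to the mean CPM of KO control 1 and 3, its summed rRNA stood at 36.8%, its summed mRNA at 6.74% and its summed tRNA at 5.66%. Among the mRNAs, MT-ND5 kept 26.1% and MT-ND6 kept 20.1%, whereas MT-CYB kept 2.48%, MT-ATP6 2.59% and MT-CO2 2.70%. MT-RNR2, the rRNA of the large ribosomal subunit, kept 41.2%, and MT-RNR1, the rRNA of the small subunit, kept 13.2%. Neighbours differed: MT-CYB lies 2 genes after MT-ND6 on the chromosome. For the 13 mRNAs the median was 8.33%, and among 16538 nuclear genes it was 100%, with 299 (1.81%) under 10% of the other KO controls. TMM scaling centres gene ratios between libraries, so that nuclear median cannot show that nuclear RNA was unchanged. Chi-square per gene was 114 and 105 for KO control 2 against KO control 1 and 3. It was 4.14 between KO control 1 and 3, and at most 16.8 for any other pair within a group. That value was not split into mitochondrial and nuclear genes.

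The 8 tRNAs with at least 500 counts over all libraries kept a median of 8.91%. MT-TN kept 1.57%, MT-TC 2.35% and MT-TY 4.33%, whereas MT-TR, for arginine, kept 32.4%. MT-TL1 had 1 count in KO control 2, against 150 and 181 counts in KO control 1 and 3, a ratio of 0.655% with an exact 95% interval from 0.0165% to 3.68%. MT-TI, for isoleucine, was singled out after its values were seen: it had 39 counts in KO control 2 against 15 in each of the other KO controls. In that library MT-TN and MT-TC made up 25.4% of the tRNA counts, against 68.5% to 83.2% in the other 11.

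**Figure D2:**
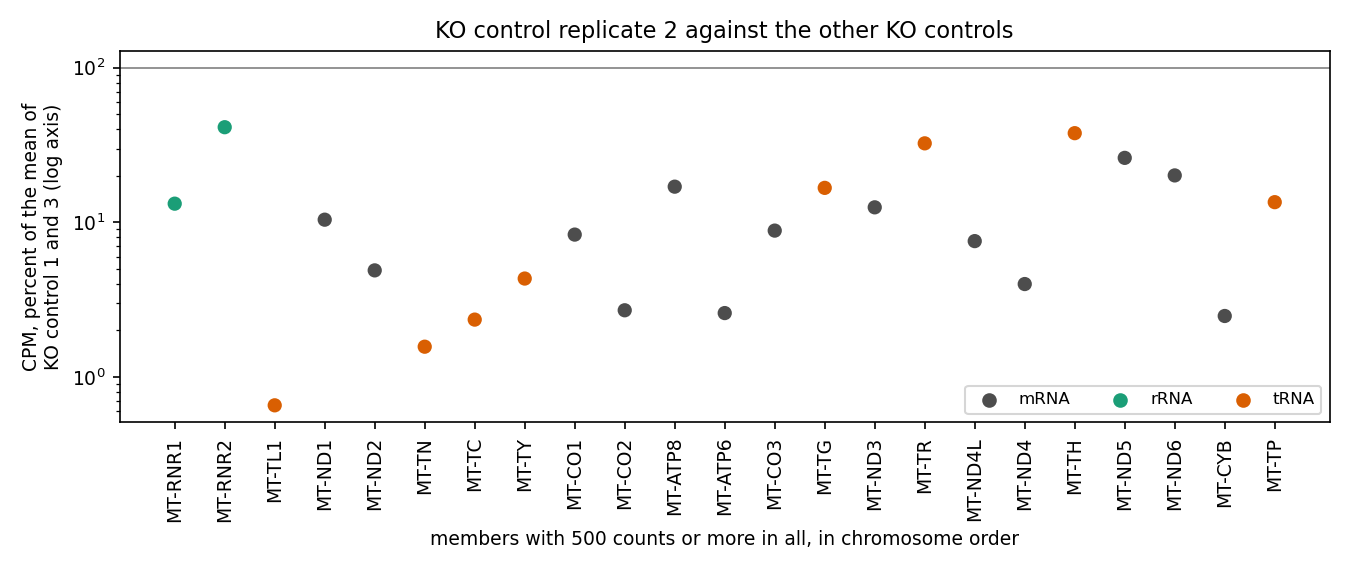
CPM in KO control 2 as a percent of the mean of KO control 1 and 3 (y axis, logarithmic), for the 23 members with 500 counts or more, in chromosome order (x axis), coloured by biotype; the line marks 100%. All points lie below the line, from 0.656% for MT-TL1 to 41.2% for MT-RNR2.

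Other values moved with that library. COL1A1, which encodes a collagen chain and was listed as a mesenchymal marker, stood at 3470 CPM in KO control 2 and at 463 to 1200 CPM elsewhere. The summed level of the 7 epithelial markers was 1590 CPM there, within the 1390 to 1750 CPM of the others, with KRT7, KRT8 and KRT18 plainly present. CDH1 had at most 50 counts in any library, EPCAM at most 40 and KRT5 at most 9, so these defining epithelial markers were near 0 and the label rests on the other keratins. The 5 leukocyte markers summed to 0.186 CPM in KO control 2 and to at most 0.515 CPM elsewhere. The 5 mesenchymal markers summed to 5740 CPM in KO control 2 and to 3360 to 4810 CPM in the other 11. COL1A1 carried that sum: relative to the mean of the other KO controls it stood at 550%, while FN1 stood at 61.6%, CDH2 at 65.2%, PDGFRB at 86.9% and VIM at 87.4%. FN1, VIM and CDH2 were lower in KO control 2, with 1280, 819 and 129 CPM, than in any other library. The 4 endothelial markers summed to 4.04 CPM there and to at most 3.98 CPM elsewhere, and the 3 neuronal markers to 1.86 CPM within a range of 1.09 to 3.42 CPM. The part of these values in the mitochondrial loss was not tested.

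Nuclear copies of mitochondrial genes were also low in KO control 2, though not to the same extent as their parents. MTND2P28, MTCO1P12 and MTATP6P1 are pseudogenes that lie in a row on chromosome 1 and resemble the mitochondrial stretch with MT-ND2, MT-CO1 and MT-ATP6. MTND2P28 stood at 187, 2.61 and 153 CPM in KO control 1, 2 and 3, and MTATP6P1 at 232, 34.2 and 182 CPM. Relative to the other KO controls, MTND2P28 kept 1.54%, MTATP6P1 16.5% and MTCO1P12 44.4%. Their parents MT-ND2, MT-ATP6 and MT-CO1 kept 4.89%, 2.59% and 8.33%. MTCO1P12 stood at 11 CPM in KO control 2 and 18.5 to 37.1 CPM elsewhere, and MTND4P12, on chromosome 5, at no more than 4.75 CPM in any library. Over the 89 listed copies with counts, the sum was 53.2 CPM in KO control 2 and 263 to 504 CPM elsewhere. Reads of the near-identical stretches can be split between parent and copy, so the levels of MT-ND2, MT-CO1 and MT-ATP6 are uncertain to that extent.

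In the other 11 libraries, mRNA made up 85.6% to 93.9% of the mitochondrial counts, rRNA 5.68% to 13.7% and tRNA 0.394% to 0.972%. Per length, in fragments per kilobase and megacount (FPKM), MT-CO1 led with a median of 6829 over those libraries, followed by MT-CO2 with 5608 and MT-ND4 with 5055. These encode subunits of complex IV, the terminal oxidase, and of complex I, which oxidises NADH. Then came MT-ATP6, MT-ND4L, MT-CO3 and MT-CYB, with medians of 4141, 3794, 3193 and 3010 FPKM, MT-ND2 and MT-ND1, with 2209 and 2054 FPKM, and MT-ND3, MT-ND6 and MT-ND5, with 1419, 1403 and 1267 FPKM. From MT-CO1 to MT-ND5, the ranges of neighbours in this order overlapped, so it is an order of medians and is not resolved. MT-CO1 ran from 5465 to 8791 FPKM and MT-CO2 from 4881 to 7338 FPKM. In KO control 1, MT-CO2 lay above MT-CO1 (6545 against 6539 FPKM). MT-RNR1 (383 FPKM) and MT-ATP8 (166 FPKM) were lowest. The place of MT-RNR2 depended on the group. It had 2566, 3790 and 3295 FPKM in KO bleomycin and 1695 and 1485 FPKM in KO control 1 and 3, against 3057, 3190 and 4147 FPKM in WT bleomycin and 1477, 1382 and 1351 FPKM in WT control. It thus lay above MT-CO3 and MT-CYB in every WT bleomycin library and below MT-ND2 and MT-ND1 in every WT control library. MT-ATP6 exceeded MT-ATP8 by 13.7 to 39.8 times in FPKM although 1 mRNA carries both, and only 161 bases of MT-ATP8 lie outside MT-ATP6.

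MT-ND5 and MT-ND6 abut on opposite strands. There were 2.62 to 3.36 MT-ND5 counts per MT-ND6 count in the other 11 libraries and 3.75 in KO control 2, above that range. Both encode complex I subunits. MT-ND6 lay at 925, 622 and 556 CPM in KO bleomycin and 667, 133 and 656 CPM in KO control, against 743, 760 and 814 CPM in WT bleomycin and 593, 1179 and 942 CPM in WT control. WT control 1 was low for both genes, with 1716 CPM of MT-ND5 beside 3089 and 2753 CPM in WT control 2 and 3. Neither gene passed the test with bleomycin in either genotype, with or without KO control 2.

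Of the tRNAs, 14 had under 50 counts in every library. In the other 11 libraries MT-TN and MT-TC led with medians of 1241 and 1387 FPKM, followed by MT-TY (237), MT-TP (210) and MT-TL1 (143). MT-TG, for glycine, had a median of 61.9 FPKM. The ranges of MT-TN and MT-TC overlapped widely, 789 to 2824 and 867 to 2965 FPKM. The 8 minus-strand tRNAs held 82.0% to 92.4% of the tRNA counts in those 11 libraries and 47.9% in KO control 2.

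Bleomycin against control in KO and in WT cells asks how the drug moved mitochondrial transcripts in each genotype. The large-subunit rRNA MT-RNR2 rose in both. MT-RNR2 lay at 4068, 5952 and 5165 CPM in KO bleomycin and 2650, 1024 and 2324 CPM in KO control. In WT cells it lay at 4809, 5030 and 6495 CPM with bleomycin and 2299, 2168 and 2110 CPM in control medium. Every bleomycin library exceeded every control library. The log2 fold change was 1.34 (SE 0.28, adjusted p = 0.0019) in KO cells and 1.31 (SE 0.28, adjusted p = 0.002) in WT cells. These come from edgeR's quasi-likelihood test with Benjamini-Hochberg adjustment over 16702 genes, as do all such values below, called at an adjusted p of 0.05. The SE was worked back from that test, as the size of the log2 fold change over the square root of the F statistic. Without KO control 2 they were 1.02 (SE 0.15, adjusted p = 2.53e-05) in KO cells and 1.31 (SE 0.13, adjusted p = 2.1e-07) in WT cells, over 17204 genes.

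MT-RNR1 lay at 362, 569 and 700 CPM in KO bleomycin and 409, 46.9 and 300 CPM in KO control, with overlap between KO bleomycin 1 and KO control 1. WT libraries had 369, 463 and 500 CPM with bleomycin and 297, 263 and 275 CPM in control medium, with no overlap. With all libraries it did not pass in KO cells (1.11, SE 0.54, adjusted p = 0.115) or WT cells (0.67, SE 0.53, adjusted p = 0.337). Leaving out KO control 2, it passed in WT cells (0.67, SE 0.24, adjusted p = 0.0475) and not in KO cells (0.61, SE 0.28, adjusted p = 0.106). In that fit, which shares its spread with the KO libraries, the WT call is at the edge of the threshold. Leaving out KO bleomycin 2, WT bleomycin 2 or 3, or any WT control as well put it at 0.0679 to 0.132. With KO control 1 or 3 also left out, the KO control group had no replicates. The log2 fold change was then 0.66, and whether the WT call held is not given. The call was also lost with no filter on low counts, size factors from DESeq2 in edgeR, or a replicate block (adjusted p = 0.129, 0.0506 and 0.0801). With the WT libraries fitted alone, MT-RNR1 had 0.68 (adjusted p = 6.74e-05). The rRNAs together were 10.6, 15.1 and 15.7 counts per 100 mRNA counts in KO bleomycin and 7.37, 40.2 and 7.35 in KO control. They were 14.21, 15.05 and 15.97 in WT bleomycin and 6.51, 6.04 and 6.36 in WT control. Per MT-RNR1 count there were 11.23, 10.46 and 7.375 MT-RNR2 counts in KO bleomycin and 6.476, 21.87 and 7.755 in KO control, which overlap with or without KO control 2. In WT cells there were 10.87 to 13.03 with bleomycin and 7.68 to 8.23 in control medium, with no overlap.

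RNAs of a list whose usual transcripts lack a long poly(A) tail were set beside the rRNAs. Whether the transcripts counted here lacked one, those of the histone genes included, was not tested. The summed level of the 15 listed, of which 10 had counts, was 23.7 to 74.4 CPM in KO bleomycin, 19.2 to 29.1 CPM in KO control, 32.4 to 51.3 CPM in WT bleomycin and 16.0 to 27.1 CPM in WT control. RN7SL2, the RNA of the signal recognition particle, stood at 9.70, 35.4 and 58.8 CPM in KO bleomycin and 15.7, 16.7 and 7.48 CPM in KO control, and at 13.5, 28 and 30.9 CPM in WT bleomycin and 15.5, 13.6 and 7.07 CPM in WT control. Among the histone genes, HIST1H2BK lay at 10.1 to 14.2 CPM in KO bleomycin and 0.808 to 6.46 CPM in KO control, against 11.3 to 14.2 CPM in WT bleomycin and 3.56 to 5.31 CPM in WT control. HIST1H1C lay at 3.55 to 4.83 and 3.29 to 5.73 CPM in KO bleomycin and KO control, with overlap, and HIST2H2AC stayed at or under 1.73 CPM. RN7SL2 overlapped between bleomycin and control in both genotypes. KO bleomycin 1, the bleomycin library with the fewest rRNA counts per mRNA count, also had the lowest RN7SL2 of the 6. KO control 2 had the most rRNA counts per 100 mRNA counts (40.2). Its sum over the list was 21.0 CPM, within the 16.0 to 74.4 CPM of the other 11 libraries. NEAT1 and MALAT1, which stay in the nucleus, summed to 642 to 833 CPM in KO bleomycin and 451 to 611 CPM in KO control, against 561 to 759 CPM in WT bleomycin and 321 to 471 CPM in WT control. The part of poly(A) capture or RNA quality in the rRNA result was not tested.

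**Figure D3:**
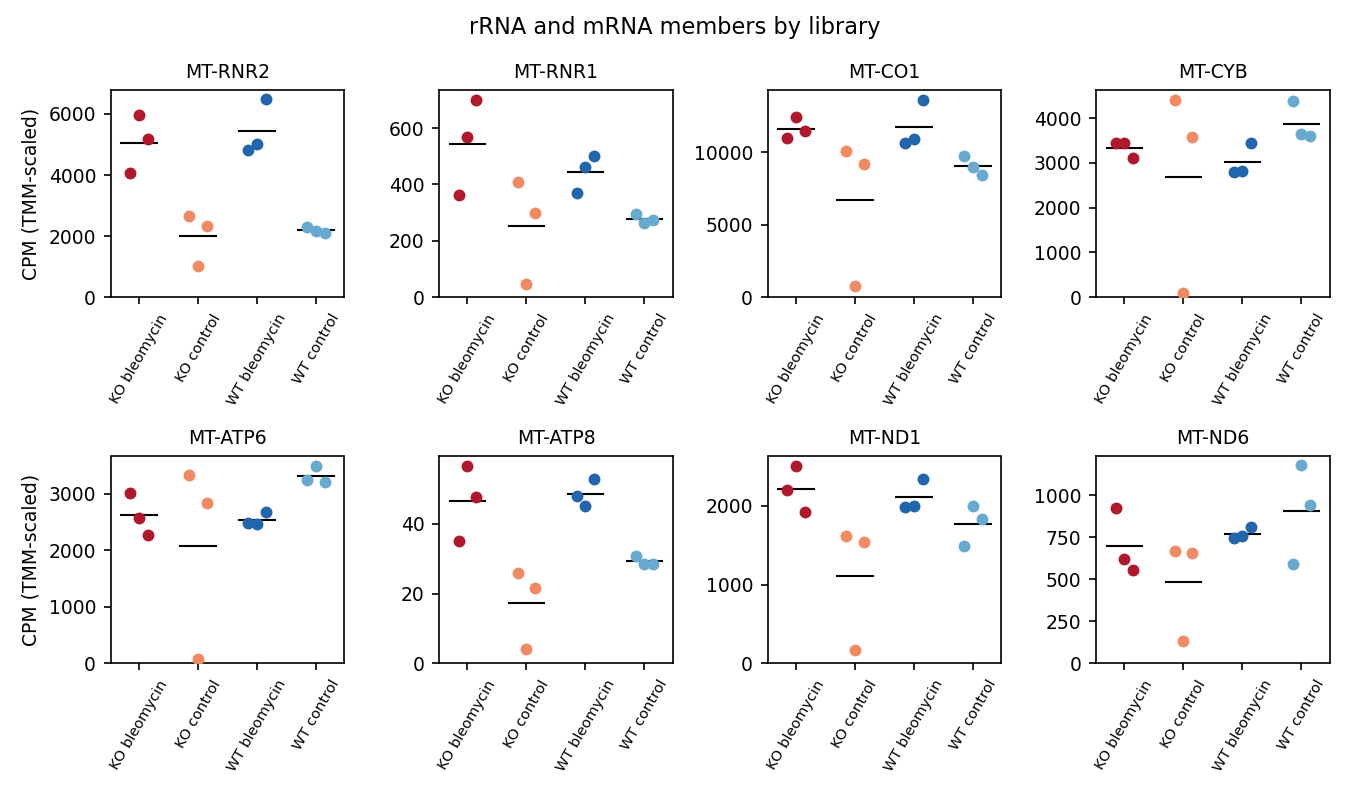
CPM after TMM scaling (y axes, from 0) of 8 rRNA and mRNA members in the 12 libraries; points are libraries and black lines are group means (n = 3). MT-RNR2 separates bleomycin from control libraries in both genotypes, and KO control 2 is the low point of the KO control group in all 8 panels.

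Among the mRNAs, MT-ATP8 rose in KO cells with all libraries, and no other mRNA passed in either genotype. MT-ATP8 encodes a small subunit of ATP synthase. It lay at 34.99, 56.76 and 47.67 CPM in KO bleomycin and 26.01, 4.038 and 21.61 CPM in KO control. The WT libraries had 48.04, 45.17 and 52.92 CPM with bleomycin and 30.89, 28.43 and 28.55 CPM in control medium. Groups did not overlap in either genotype. It rose in KO cells by 1.43 on the log2 scale (SE 0.44, adjusted p = 0.0195), a call lost without KO bleomycin 2 (1.26, adjusted p = 0.0619). The WT value was 0.73 (SE 0.42, adjusted p = 0.186). It rose in both genotypes without KO control 2, by 0.97 (SE 0.16, adjusted p = 0.000271) in KO cells and 0.73 (SE 0.14, adjusted p = 0.000546) in WT cells.

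MT-ATP6, the proton-channel subunit encoded on the same mRNA, moved the other way in WT cells. It lay at 2475, 2460 and 2677 CPM in WT bleomycin and 3246, 3489 and 3200 CPM in WT control. It fell by 0.39 without KO control 2 (SE 0.10, adjusted p = 0.00209) and had -0.38 with it (SE 0.78, adjusted p = 0.727). In KO cells it lay at 3011, 2566 and 2277 CPM with bleomycin and 3336, 79.96 and 2830 CPM in control medium, with a log2 fold change of 0.33 with all libraries (SE 0.78, adjusted p = 0.763) and -0.24 without KO control 2 (SE 0.11, adjusted p = 0.0767), so that library turned its sign. MT-ATP8 made up 0.121% to 0.132% of mitochondrial mRNA counts in WT bleomycin and 0.0706% to 0.0775% in WT control. Since the genes overlap in the stretch shown above, how reads were split between them was not tested.

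MT-CYB, the cytochrome b of complex III, was lower and MT-CO1 higher in WT bleomycin. MT-CYB lay at 2788, 2819 and 3451 CPM in WT bleomycin and 4382, 3651 and 3602 CPM in WT control. It fell by 0.37 without KO control 2 (SE 0.11, adjusted p = 0.00615), against -0.36 with it (SE 0.79, adjusted p = 0.746). In KO cells MT-CYB lay at 3435, 3433 and 3102 CPM with bleomycin and 4401, 98.9 and 3573 CPM in control medium, with a log2 fold change of 0.30 with all libraries (SE 0.79, adjusted p = 0.784) and -0.27 without KO control 2 (SE 0.12, adjusted p = 0.0692), another turn of sign. MT-CO1 lay at 10630, 10940 and 13620 CPM in WT bleomycin and 9710, 8957 and 8441 CPM in WT control, and rose by 0.37 without KO control 2 (SE 0.11, adjusted p = 0.00516). With it, MT-CO1 had 0.38 (SE 0.59, adjusted p = 0.646). In KO cells MT-CO1 lay at 10980, 12430 and 11480 CPM with bleomycin and 10110, 804.3 and 9205 CPM in control medium, a log2 fold change of 0.79 with all libraries (SE 0.59, adjusted p = 0.306) and 0.26 without KO control 2 (SE 0.12, adjusted p = 0.0749).

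MT-ND1, a membrane subunit of complex I, rose in KO cells without KO control 2. It lay at 2206, 2511 and 1919 CPM in KO bleomycin and 1618, 165 and 1547 CPM in KO control, with a log2 fold change of 0.48 (SE 0.13, adjusted p = 0.00389). With all libraries it had 0.99 (SE 0.56, adjusted p = 0.172). The WT value was 0.25 in both fits, with adjusted p = 0.748 with all libraries (SE 0.55) and 0.0652 without KO control 2 (SE 0.11). The other 8 mRNAs, MT-ND2, MT-ND3, MT-ND4, MT-ND4L, MT-ND5, MT-ND6, MT-CO2 and MT-CO3, passed in neither genotype in either fit. Their log2 fold changes ran from 0.47 to 0.79 in KO cells and from -0.23 to 0.14 in WT cells with all libraries, and from -0.06 to 0.26 in KO cells and from -0.23 to 0.13 in WT cells without KO control 2.

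**Figure D4:**
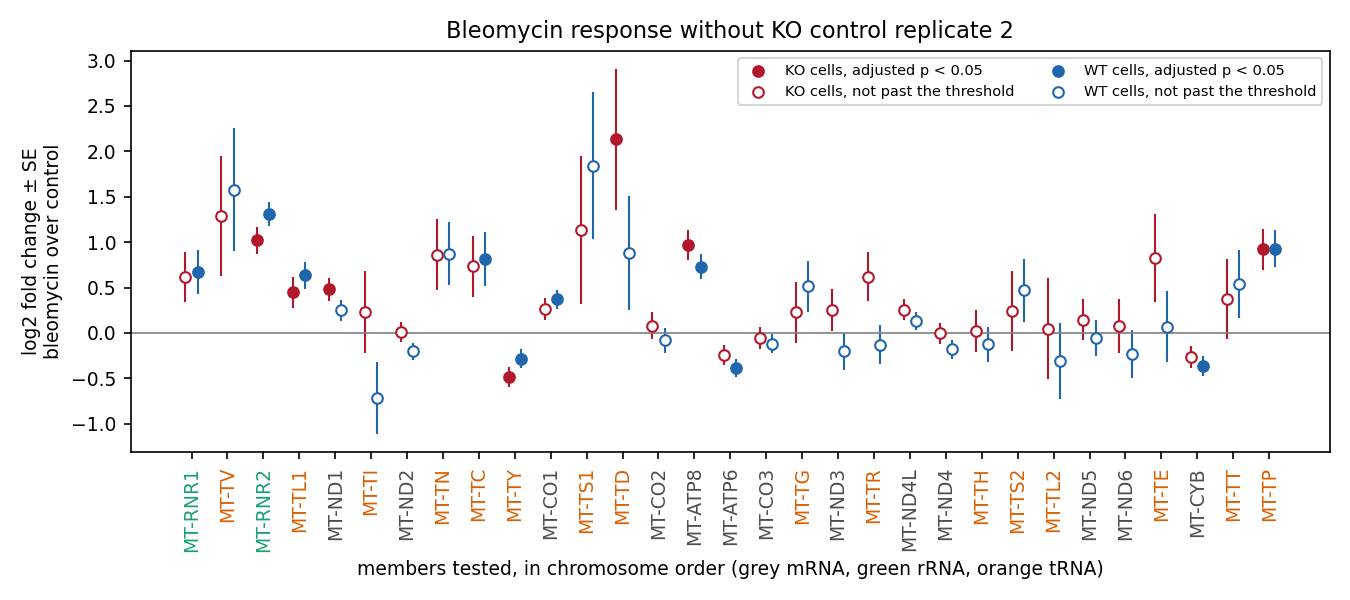
Log2 fold change of bleomycin over control with its SE (y axis) for the 31 members tested without KO control 2, in chromosome order (x axis), in KO cells (red) and WT cells (blue); filled points have an adjusted p under 0.05. MT-RNR2, MT-TL1, MT-ATP8 and MT-TP are filled above 0 and MT-TY is filled below 0 in both genotypes.

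MT-TP and MT-TL1 were the tRNAs that rose in both genotypes without KO control 2. MT-TP lay at 15.21, 26.02 and 16.07 CPM in KO bleomycin and 10.5, 1.367 and 9.715 CPM in KO control, and at 17.5, 14.4 and 21.9 CPM in WT bleomycin and 9.298, 9.114 and 9.878 CPM in WT control, with no overlap in either genotype. Its log2 fold change in KO cells was 1.40 with all libraries (SE 0.46, adjusted p = 0.0276; 1.11 and 0.109 without KO bleomycin 2) and 0.92 without KO control 2 (SE 0.23, adjusted p = 0.00506; 0.86 and 0.057 if KO control 3 was also left out). The WT log2 fold change was 0.93 in both fits, with adjusted p = 0.117 with all libraries (SE 0.45) and 0.00152 without KO control 2 (SE 0.20). MT-TL1 lay at 11.4, 16.7 and 10.8 CPM in KO bleomycin and 9.05, 0.0621 and 9.88 CPM in KO control, against 12.4, 12.5 and 12.6 CPM in WT bleomycin and 6.91, 9.30 and 7.88 CPM in WT control. It rose without KO control 2 by 0.45 in KO cells (SE 0.17, adjusted p = 0.0344) and 0.63 in WT cells (SE 0.15, adjusted p = 0.00122), and with all libraries it had 1.02 (adjusted p = 0.233) and 0.64 (adjusted p = 0.457) in KO and WT cells. The KO call was lost when KO bleomycin 2, KO control 1 or KO control 3 was also left out, at 0.22 to 0.51 and adjusted p = 0.0886 to 0.254.

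MT-TY fell in both genotypes without KO control 2, although MT-TN and MT-TC beside it did not. MT-TY lay at 16.2, 16.8 and 16.5 CPM in KO bleomycin and 22.7, 0.994 and 23.2 CPM in KO control, and at 11.6, 10.7 and 11.6 CPM in WT bleomycin and 15.65, 12.51 and 13.01 CPM in WT control. Its log2 fold change was -0.48 in KO cells (SE 0.11, adjusted p = 0.00115) and -0.29 in WT cells (SE 0.11, adjusted p = 0.0265) without KO control 2. With all libraries it was 0.07 in KO cells (SE 0.62, adjusted p = 0.939) and -0.28 in WT cells (SE 0.62, adjusted p = 0.749), so that library turned its sign in KO cells. The WT call was lost when WT bleomycin 2 or WT control 1 was also left out, at -0.24 (adjusted p = 0.0927) and -0.18 (adjusted p = 0.152). It was also lost with the WT libraries fitted alone (-0.28, adjusted p = 0.061).

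MT-TN lay at 119, 208 and 148 CPM in KO bleomycin and 94.7, 1.37 and 78.9 CPM in KO control, against 91.5, 75.1 and 176 CPM in WT bleomycin and 65.9, 58.0 and 62.7 CPM in WT control. MT-TC lay at 94.7, 197 and 131 CPM in KO bleomycin and 88.8, 1.99 and 80.4 CPM in KO control, against 92.4, 102 and 147 CPM in WT bleomycin and 76.0, 57.6 and 59.7 CPM in WT control. Every bleomycin library of a genotype lay above every control library for both genes. Leaving out KO control 2, MT-TN did not pass in KO cells (0.86, SE 0.39, adjusted p = 0.108) or WT cells (0.87, SE 0.35, adjusted p = 0.0652). MT-TC passed in WT cells (0.82, SE 0.30, adjusted p = 0.0481) and not in KO cells (0.74, SE 0.34, adjusted p = 0.111). That MT-TC call was lost, at 0.0601 to 0.15, without any one of KO bleomycin 3, WT bleomycin 2 or 3, or each WT control. With KO control 1 or 3 also left out, the KO control group had no replicates. The log2 fold change of MT-TC was then 0.81, and whether its call held is not given. The call was also lost with no filter on low counts, size factors from DESeq2 in edgeR, or a replicate block (adjusted p = 0.117, 0.0504 and 0.0906). With the WT libraries fitted alone, MT-TC had 0.83 (adjusted p = 0.0148). With all libraries neither passed: MT-TN had 1.44 in KO cells (adjusted p = 0.174) and 0.88 in WT cells (adjusted p = 0.411), and MT-TC 1.30 (adjusted p = 0.189) and 0.82 (adjusted p = 0.413).

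MT-TR had 29, 58 and 55 counts in KO bleomycin and 30, 9 and 30 in KO control. It rose in KO cells with all libraries, by 0.98 (SE 0.34, adjusted p = 0.0318), and not without KO control 2 (0.62, SE 0.27, adjusted p = 0.0632). Its call was also lost without KO bleomycin 2 (0.85, adjusted p = 0.109) or KO bleomycin 3 (0.89, adjusted p = 0.0955), and in WT cells it had -0.13 in both fits. MT-TD, for aspartate, passed the filter on low counts only without KO control 2. It had 7, 22 and 6 counts in KO bleomycin and 3, 0 and 2 in KO control, and rose by 2.13 (SE 0.77, adjusted p = 0.0276). That call was lost when KO control 1 or KO control 3 was also left out, at 2.50 (adjusted p = 0.083) and 1.80 (adjusted p = 0.181). MT-TG passed in neither genotype in either fit, with 0.69 in KO cells and 0.52 in WT cells with all libraries and 0.23 and 0.51 without KO control 2.

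**Figure D5:**
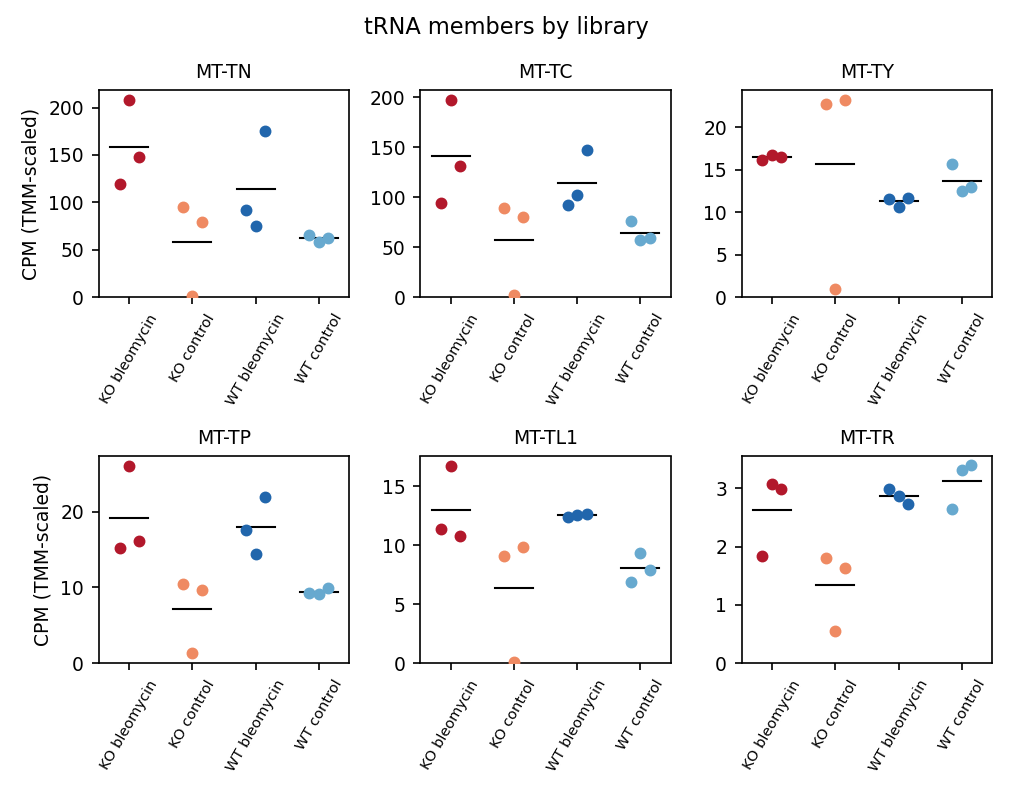
CPM after TMM scaling (y axes, from 0) of 6 tRNA members in the 12 libraries; points are libraries and black lines are group means (n = 3). MT-TP lies higher in every bleomycin library than in every control library of its genotype, while MT-TY without KO control 2 lies at 16.2 to 16.8 CPM in KO bleomycin, under both other KO controls.

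In all, 29 members passed the filter on low counts with all libraries and 31 without KO control 2. With all libraries, 4 rose and 0 fell in KO cells, 13.8% of the 29, where 22.5% of all genes tested rose and 20.7% fell. In WT cells 1 rose, or 3.45%, where 23.9% of all genes rose and 19.6% fell. In the fit without KO control 2, 6 rose (19.4% of 31) and 1 fell (3.23%) in KO cells, against 25.6% and 22.8% of all genes. In WT cells 7 rose (22.6%) and 3 fell (9.68%), against 29.8% and 26.8%. In each case the share of members called was no higher than that of all genes.

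By biotype, without KO control 2, the median log2 fold change in KO cells was 0.82 for the 2 rRNAs, 0.53 for the 16 tRNAs tested and 0.08 for the 13 mRNAs, against 0.03 for all genes. In WT cells it was 0.99, 0.53 and -0.12 for rRNAs, tRNAs and mRNAs, against 0.03 for all genes. With all libraries the medians were 1.23, 0.83 and 0.57 in KO cells and 0.99, 0.49 and -0.12 in WT cells. The tRNAs made up 0.583%, 0.972% and 0.777% of the chromosome's counts in KO bleomycin and 0.534%, 0.353% and 0.563% in KO control, and 0.596%, 0.550% and 0.759% in WT bleomycin and 0.438%, 0.394% and 0.432% in WT control. The order of biotypes was therefore the same in both genotypes and both fits, as a description of 2, 14 or 16, and 13 genes. KO control 2 does not enter a WT fold change, but it widened the shared spread: the median SE of the mRNAs in WT cells was 0.59 with it and 0.11 without it. With the WT libraries fitted alone, 9 members were called, 7 higher and 2 lower. The share of all genes called in that fit is not given here, so this count cannot be set against it.

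KO against WT asks whether these transcripts differed between KO and WT cells, where ANT1 loss and a clone effect cannot be told apart. In control medium 0 of 29 members were called with all libraries by edgeR, with 2 at an unadjusted p under 0.05, where edgeR called 0.168% of all genes. DESeq2 called 1 of the 29 and 1.25% of all genes, and limma 0 of the 29 and 0.0838% of all genes. All 13 mRNAs had negative log2 fold changes there, from -0.90 to -0.43, and without KO control 2 they ran from -0.45 to 0.10, with 5 above 0 and 8 below. MT-TY was the 1 member called without KO control 2, 0.74 higher in KO control than in WT control (SE 0.11, adjusted p = 0.00116), where 1.02% of all genes were called. MT-TY had 0.19 with all libraries (adjusted p = 0.917). MT-RNR2 had -0.13 with all libraries and 0.18 without KO control 2, MT-RNR1 had -0.14 and 0.35, and neither passed in either fit.

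In bleomycin 0 of 29 members were called between KO and WT with all libraries by edgeR, with 0 at an unadjusted p under 0.05 and 0 called by DESeq2 or limma, where 0.0479% of all genes were called. Without KO control 2, whose own group is not part of this comparison, MT-TY was again the 1 member called, 0.55 higher in KO bleomycin than in WT bleomycin (SE 0.11, adjusted p = 0.0103), against 1.71% of all genes. With all libraries it had the same 0.55 (SE 0.62, adjusted p = 0.999). Its KO bleomycin libraries (16.2 to 16.8 CPM) all exceeded its WT bleomycin libraries (10.7 to 11.6 CPM). The call was lost when KO bleomycin 3 (0.54, adjusted p = 0.0569) or WT bleomycin 2 (0.51, adjusted p = 0.0744) was also left out. The 13 mRNAs ran from -0.19 to 0.30 in both fits.

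The difference between the KO and the WT response was tested as an interaction. With all libraries 0 of 29 members were called by edgeR, with 1 at an unadjusted p under 0.05 and 0 by DESeq2 or limma. Of all genes 0% were called, with 770 of 16702 at an unadjusted p under 0.05, 4 called by DESeq2 and 0 by limma. Without KO control 2, 0 of 31 members were called, with 1 at an unadjusted p under 0.05 and 0 by DESeq2 or limma, against 0.0523% of all genes. With all libraries the interaction was above 0 for all 29 members tested, and without KO control 2 for 18 of 31. For MT-RNR2 it was 0.03 with all libraries and -0.29 without KO control 2.

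The nuclear genes that copy, transcribe and process mitochondrial DNA and RNA were described as a list of 49, all of them tested. In KO cells with bleomycin 6 rose (12.2%) and 15 fell (30.6%) with all libraries, where 22.5% of all genes rose and 20.7% fell. There 10 rose (20.4%) and 15 fell (30.6%) without KO control 2, against 25.6% and 22.8% of all genes. In WT cells 8 rose (16.3%) and 5 fell (10.2%) with all libraries, against 23.9% and 19.6% of all genes, and 14 rose (28.6%) and 13 fell (26.5%) without KO control 2, against 29.8% and 26.8%. The list's median log2 fold change was -0.12 in KO cells in both fits and -0.05 in WT cells in both fits, against 0.00 to 0.03 for all genes.

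RRM2B, a ribonucleotide reductase subunit that supplies DNA precursors outside S phase, had the largest rise, with log2 fold changes of 2.68 (SE 0.09, adjusted p = 3.14e-10) in KO cells and 3.18 (SE 0.09, adjusted p = 5.4e-11) in WT cells. MGME1, an exonuclease for mitochondrial DNA, rose by 1.12 in KO cells and 1.20 in WT cells. POLG, the catalytic subunit of the mitochondrial DNA polymerase, fell by 0.75 in KO cells and 0.62 in WT cells. MPV17, an inner membrane protein needed for DNA maintenance, rose by 0.73 in KO cells, and REXO2, which degrades short RNAs, rose by 0.57 in WT cells. These calls held without KO control 2, where in KO cells RRM2B had 2.61, MGME1 1.00, POLG -0.56 and MPV17 0.56, and in WT cells RRM2B had 3.18, MGME1 1.20, POLG -0.62 and REXO2 0.56.

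Of the transcription proteins, POLRMT, the mitochondrial RNA polymerase, fell by 0.70 in KO cells (SE 0.20, adjusted p = 0.0142) and had -0.50 in WT cells (SE 0.20, adjusted p = 0.0622). It fell in both genotypes without KO control 2, by 0.34 in KO cells (adjusted p = 0.0071) and 0.51 in WT cells (adjusted p = 5.64e-05). TFAM, which packages mitochondrial DNA and starts transcription, did not pass in KO cells (-0.25, adjusted p = 0.0823, and -0.12, adjusted p = 0.225, without KO control 2) or in WT cells (0.04 and 0.03). TFB2M, the initiation factor, did not pass in either genotype, with -0.20 in KO cells and 0.07 in WT cells with all libraries and 0.06 in both without KO control 2. LRPPRC and SLIRP, which bind and stabilise mitochondrial mRNAs, did not pass either, with LRPPRC at -0.08 in KO cells and 0.16 in WT cells and SLIRP at 0.22 in KO cells and 0.16 in WT cells. Without KO control 2 LRPPRC had 0.09 and 0.15, and SLIRP 0.24 and 0.16, in KO and WT cells.

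Between genotypes, 0 of the 49 were called with all libraries in control medium or in bleomycin, where 0.168% and 0.0479% of all genes were called. Without KO control 2, RRM2B was called lower in KO bleomycin than in WT bleomycin (-0.28, SE 0.07, adjusted p = 0.0302) and had an interaction of -0.57 (SE 0.10, adjusted p = 0.0497). In each it was the 1 gene of the 49 called (2.04%), against 1.71% of all genes in bleomycin and 0.0523% in the interaction. In control medium 0 of the 49 were called in that fit, against 1.02% of all genes. With all libraries RRM2B had -0.28 (adjusted p = 0.428) in bleomycin and an interaction of -0.50 (adjusted p = 0.881). TFAM, POLRMT, TFB2M, LRPPRC and SLIRP lay between -0.15 and 0.30 between genotypes, and none passed.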

How the data were processed

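The authors deposited raw counts per gene and FPKM values for 12 libraries. Per the submitters' processing notes, HISAT2 2.0.5 and featureCounts 1.5.0-p3 were used. The genome build and the strand setting are not given in the sources used here. Per the labels' protocols, RNA was purified with poly-T beads and copied with random hexamers. Deposited counts went through edgeR 4.0.16 in R 4.3.3 (filterByExpr, TMM, estimateDisp, robust glmQLFit) with 4 group means and 5 contrasts, adjusted over all genes tested. Deposited FPKM gave levels per length. FPKM at a pseudocount of 1 went into limma 3.58.1, and counts into DESeq2 1.42.0, as alternatives. The edgeR step was tested on simulated data for the WT response, with 12 libraries and none set apart from its group. The fit without KO control 2, the other contrasts, limma and DESeq2 were not tested in that way. The 37 members and the lists were chosen with earlier results of these data known. Named were all mRNAs and rRNAs, and tRNAs called in any contrast or among the 6 with most counts. Also named were 5 fixed nuclear genes plus the 4 called with the smallest adjusted p. The 4 pseudogenes and the 4 RNAs listed as untailed with most counts were named too. The series' design text calls the libraries of a group biological replicates. Intervals and floors cover counting error only: a count of 0 allows up to 3 counts, 0.137 to 0.19 CPM. No pair of libraries of a group agreed within sampling noise (chi-square per gene of at least 2.79).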

Additional observations from a re-analysis of the deposited data

How the results depend on the processing

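KO control 2 decides most calls: leaving it out turned the sign of 6 of 29 members in the KO response, 13 in KO against WT in control medium and 12 in the interaction, and of 0 in the WT response and in KO against WT in bleomycin. Leaving out each library in turn gave 1 to 7 members called in the KO response (4 with all libraries), the lowest without KO bleomycin 2, 1 to 10 in the WT response (1), 0 to 1 in KO against WT in control medium (0) and in bleomycin (0), each highest without KO control 2. With only the groups compared, the counts were 1 in the KO response, 9 in the WT response and 1 in KO against WT in bleomycin. In control medium the count was 1, lower in KO, with no filter on low counts and with DESeq2. With a second library left out beside KO control 2, the KO response gave 5 to 11 (7), the highest without KO bleomycin 1 or WT bleomycin 3, KO against WT in control medium 1 to 2 (1), the highest without WT control 1, and in bleomycin 0 to 2 (1), with 0 without KO bleomycin 3 or WT bleomycin 2 and 2 without WT bleomycin 3. The WT response gave 8 to 12 (10). These alternatives on 11 libraries were chosen after seeing the data. There, no filter on low counts gave 11 in the KO response, and only the groups compared gave 2 in control medium. MT-TY in KO against WT in control medium ranged from -0.21 to 0.74 over the libraries left out and was -0.735 with limma, and its KO response ranged from -0.48 (without KO control 2) to 0.47. Same-numbered replicates were not treated as paired in the main fits: of 18 correlations, from -0.18 to 0.15, 1 was over 0.1. Without KO control 2, 2 of 15 were over 0.1, at 0.149 and 0.158, both between KO control and WT control. Correlations this weak, with 3 libraries or fewer in a group, cannot show whether replicates were paired. With the replicate block the calls were 4, 1, 0, 0 and 0 in the KO response, WT response, control medium, bleomycin and interaction, and 5, 8, 1, 1 and 0 without KO control 2. Shares of all genes called are not given for the replicate block, only the groups compared, no filter, or other libraries left out. Those counts of members therefore cannot be set against all genes. By summed FPKM, the rRNA share of the chromosome averaged 7.44% in KO bleomycin, 9.5% in KO control (4.34% without KO control 2), 8.26% in WT bleomycin and 3.76% in WT control, and the tRNA share 10.2% in KO bleomycin, 6.68% in KO control, 8.65% in WT bleomycin and 5.65% in WT control. Per nuclear count, the chromosome stood at 4.33% in WT control. Of 380 values for named members with all libraries, 344 kept direction and side of the threshold, as did 339 of 377 without KO control 2. MT-RNR2 kept both in every alternative run in both genotypes. The cause of the differences between settings was not tested.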
